A study of Mus musculus with 20 samples.

Results

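Integrin adhesion of T cells is set in part by the small GTPase Rap1. Followed here were 9 genes of the switches of Rap1 and of the GTPase Ras. These were the exchange factors Rasgrp1, Rasgrp2 and Rapgef6, the GTPases Rap1a and Rap1b, the effector Rassf5, and the GTPase-activating proteins Rasa2, Rasa3 and Sipa1. They were taken by gene symbol from the array annotation. The 9 genes had 14 probes, out of 30199 gene names and 39429 probes on the array, and all 14 probes passed the detection filter used for testing.

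The cells were CD4 T cells sorted from pools of 8 to 15 mice of mixed sex, 8 to 14 weeks old, of the strain B6.Cg-Foxp3<tm1Mal>, in which GFP reports Foxp3, and this reporter was carried by every group. Peripheral lymph nodes (pLN) came from mice given keyhole limpet hemocyanin in alum under the skin, and gave naive T cells (GFP− PD1lo GL7−), Treg cells (GFP+ PD1lo GL7−), follicular helper T cells (TFH, GFP− PD1hi GL7+) and follicular regulatory T cells (TFR, GFP+ PD1hi, GL7+ and GL7− together), with 2 arrays each at day 12 (d12) and 1 array each at day 25 (d25). Peyer's patches (PP), for which the labels name no immunisation, gave Treg, TFR, TFH GL7+ and TFH GL7− cells with 2 arrays each. The 12 groups thus held 20 arrays on 5 slides. Arrays of a group lay on different slides and no label says how their mice were shared out, so p-values measure only the spread between these samples.

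Rap1 binds GTP in its active form. Exchange factors load it with GTP, and GTP-bound Rap1 acts through effectors to raise the affinity of integrins such as LFA-1, while GTPase-activating proteins return it to the inactive form. Ras uses the same cycle to pass signals from the T cell receptor to the MAP kinase pathway, and RasGRP proteins link the receptor to both switches through diacylglycerol and calcium.

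Values are normalised intensities of 60-base probes, with 1 leading probe per gene, the brightest one, and levels are compared only within a probe. Some of the probes, not all of them leading ones, are shown as they were printed on the array, 5′ to 3′. The Rasgrp2 probes lie at chr19:6402512-6402571 (leading) and chr19:6403507-6403563 on the plus strand (mm9). The Rapgef6 probe shown, not its leading one, spans chr11:54444858-54448320 on the plus strand and so crosses a splice junction. The Rap1a probe maps to chr3:105531168-105531192 on the minus strand, which covers 25 bases of its 60, and it has no forward reading frame without a stop.
Rasgrp2, leading: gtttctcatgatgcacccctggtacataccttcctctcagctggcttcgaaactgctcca
Rasgrp2, other: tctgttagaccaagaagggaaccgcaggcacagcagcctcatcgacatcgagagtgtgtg
Rapgef6, junction: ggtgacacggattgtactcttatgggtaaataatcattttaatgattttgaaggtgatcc
Rap1a: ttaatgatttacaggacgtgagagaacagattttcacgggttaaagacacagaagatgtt
The other 10 probes span 60 genomic bases each. One of them, the leading Rasgrp1 probe at chr2:117123829-117123888 on the minus strand, is annotated to an Ensembl transcript and lies apart from the other Rasgrp1 probe at chr2:117105803-117105862, which is annotated to the RefSeq transcript.

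The arrays carried the identities their labels give. The 4 Treg markers (Foxp3, Il2ra, Ikzf2, Lrrc32) summed to between 41720 and 95660 on the Treg and TFR arrays and to 9015 or less on all others. The 5 TFH markers (Bcl6, Cxcr5, Pdcd1, Icos, Il21) summed to at least 139500 on TFH and TFR arrays and to at most 87980 on naive T and Treg arrays. Slide 4, which holds replicate 1 of all PP groups, stood apart. Its 13 B-cell markers summed to between 28020 and 195900, against 7000 to 16620 on slide 5 with replicate 2, and its 7 epithelial markers to between 3525 and 8234, against 742.9 to 2264. Some of the calls and counts in PP are therefore also given without slide 4. The 5 myeloid markers summed to more on slide 5, 21550 to 32470, than on slide 4, 13790 to 19550, or on the pLN arrays, 8213 to 20140. In every PP group, though, 4 of these 5 markers were higher on slide 4. The epithelial markers also summed to between 1471 and 2055 on the pLN TFR arrays, with at most 2 of 7 detected, and to 596.7 or less on the other pLN arrays, and the 2 CD8 T cell markers to between 1995 and 4149 on pLN TFH and TFR arrays and between 4800 and 6546 on pLN naive T and Treg arrays. The B-cell markers summed to between 4829 and 27390 on the pLN arrays. They reached 27390 on d12 TFH replicate 1, against 6829 on d12 TFH replicate 2, and 18750 on d12 Treg replicate 2. The part of these transcripts in the values was not tested. The array of pLN TFR replicate 2 had a median local background of 268, against 24 to 78 on the others, and slides 1 and 4 were loaded with 50 ng of RNA and the others with 40 ng. In bulk samples, fewer cells of a type and less RNA per cell cannot be told apart.

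**Figure D1:**
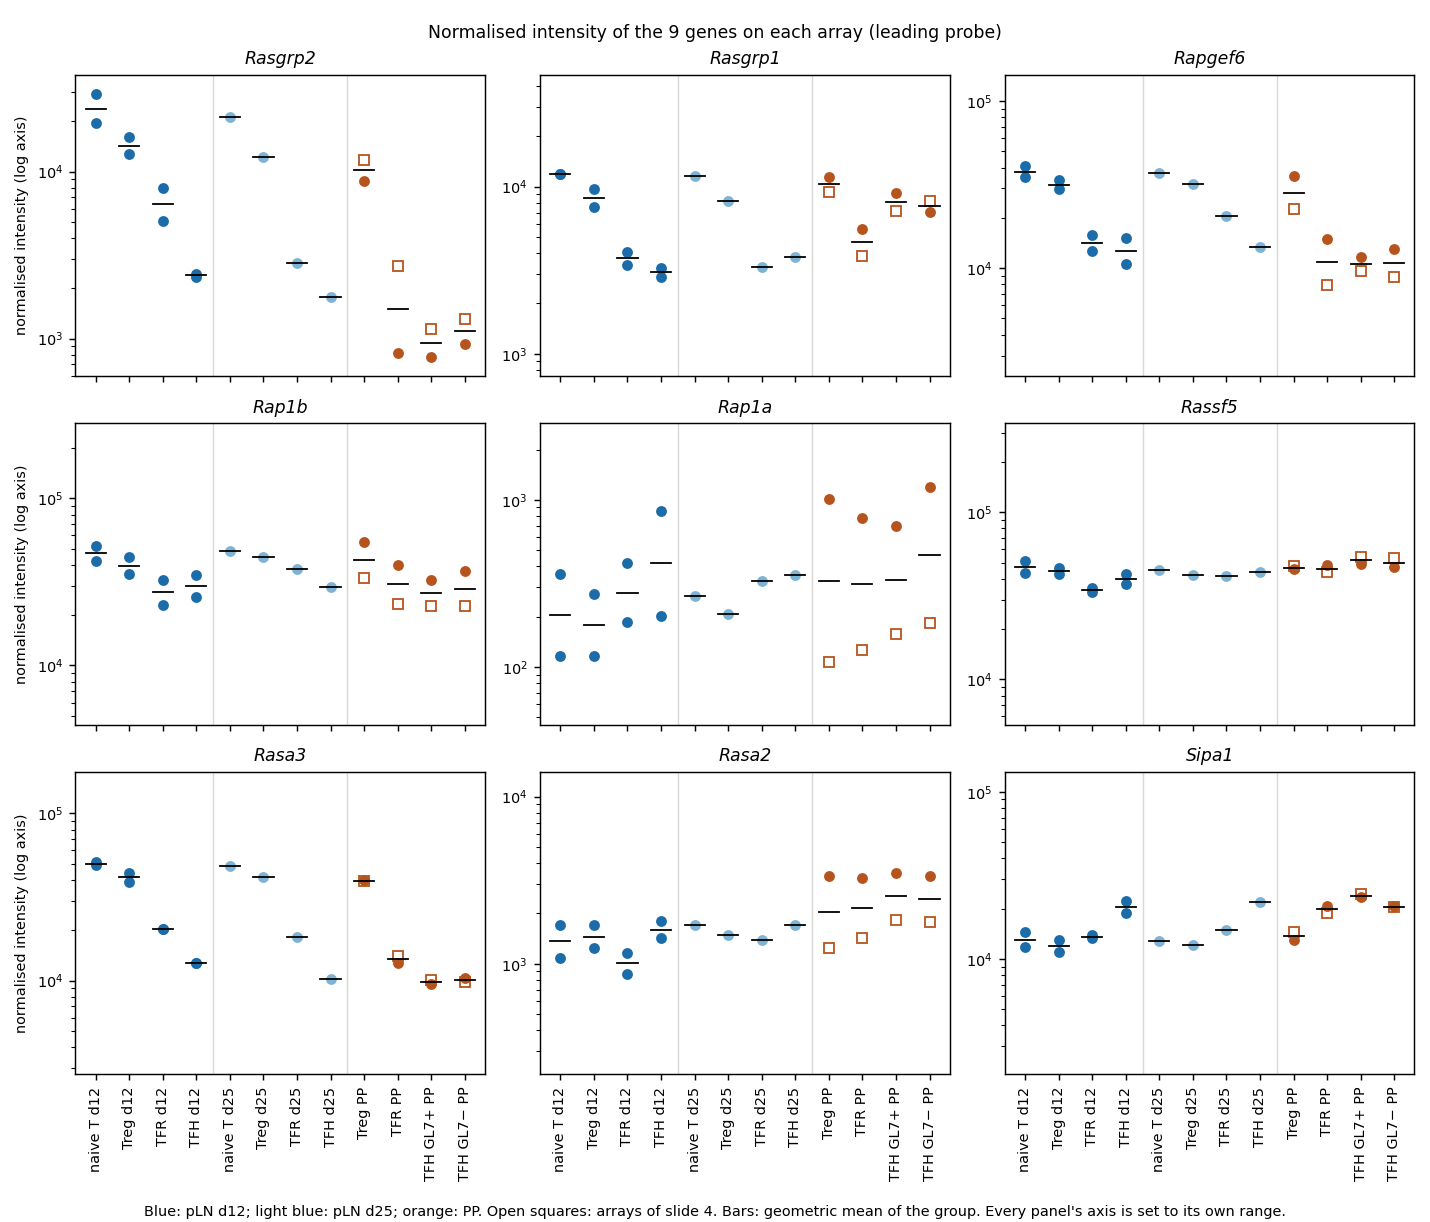
Normalised intensity (log axis) of the leading probe of each gene on all 20 arrays, by group, with bars at the geometric mean. Rasgrp2 and Rasa3 step down from naive T through Treg and TFR to TFH cells in pLN. The leading Rasgrp1 probe is lower in pLN TFH than in PP TFH cells. Sipa1 is higher in TFH and PP TFR than in naive T and Treg cells, and Rassf5 stays between 33280 and 54300.

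Over the 12 groups the leading probes of 3 of 9 members varied beyond the spread of replicates in the F test of the linear model, at p under 0.001 and adjusted p under 0.005, where 17.3% of all tested probes did. These were Rasa3 (adjusted p = 3.83e-06), Rasgrp2 (adjusted p = 0.000302) and Rasgrp1 (adjusted p = 0.000643). Sipa1 (adjusted p = 0.00566) and Rapgef6 (adjusted p = 0.00633) missed the threshold. For the comparisons that follow, a gene was called when its adjusted p was under 0.05 and its log2 change was at least 1 in size, and counts of members are counts of leading probes. With so few arrays, groups can fail to overlap without any change, so lack of overlap played no part in the calls.

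In pLN at d12, TFH cells had lower Rasgrp2, Rasa3, Rasgrp1 and Rapgef6 than naive T cells. Of the 9 members, 4 were called lower and 0 higher, and among all tested probes 5.48% were called lower and 9.27% higher. The median log2 change of the 9 members was -0.64 and that of all tested probes -0.09. The group that fell thus joined exchange factors for Rap1 and Ras with a GTPase-activating protein for both.

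Rasgrp2, also known as CalDAG-GEFI, is the calcium-responsive exchange factor for Rap1. Its intensity was 29020 and 19500 in naive T cells and 2431 and 2350 in TFH cells. The TFH arrays lay far under the naive T arrays with no overlap, a 9.95-fold fall (log2 change -3.32 ± 0.49, SE, adjusted p = 0.000845). The other Rasgrp2 probe gave 25320 and 22260 in naive T cells and 1994 and 2749 in TFH cells (log2 change -3.34 ± 0.32, adjusted p = 5.19e-05).

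Rapgef6, a Rap exchange factor also called PDZ-GEF2, read 35130 and 40770 in naive T cells and 10650 and 15100 in TFH cells. These groups did not overlap, and the log2 change was -1.58 ± 0.34 (adjusted p = 0.00827). Its junction probe, shown above, gave 2425 and 2612 against 591.1 and 1073 (log2 change -1.66 ± 0.44, adjusted p = 0.0224). The third Rapgef6 probe differed by -1.70 ± 1.06, with an adjusted p of 0.34. The call on the leading probe was lost without TFH replicate 1 (-1.33, adjusted p = 0.0719), without naive T replicate 2 (-1.47, adjusted p = 0.0509) and in a fit of the compared groups alone (adjusted p = 0.0656).

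Rasgrp1, the diacylglycerol-responsive exchange factor that activates Ras under the T cell receptor, had 11900 and 11830 in naive T cells and 2884 and 3280 in TFH cells. The fall was 3.86-fold (log2 change -1.95 ± 0.23, adjusted p = 0.000203). On the other Rasgrp1 probe naive T cells had 8005 and 14470 and TFH cells 1915 and 5241, again without overlap. There the log2 change was -1.76 ± 0.60 with an adjusted p of 0.067, so it was not called.

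Rasa3, a GTPase-activating protein of the GAP1 family that acts on both Ras and Rap1, had 49170 and 51060 in naive T cells and 12700 and 12810 in TFH cells. Replicates were close and the groups lay apart by 3.93-fold (log2 change -1.97 ± 0.14, adjusted p = 8.46e-06). A dimmer second probe fell too (log2 change -2.38 ± 0.39, adjusted p = 0.00167).

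Sipa1, also called SPA-1, a GTPase-activating protein specific to Rap, had higher values in TFH cells. It read 11750 and 14490 in naive T cells and 22190 and 18800 in TFH cells. Both TFH arrays were the higher ones, with a log2 change of 0.65 ± 0.17 and an adjusted p of 0.0202, but the change was under the size of 1 set for a call.

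The GTPases and the effector differed less. Rap1b read 42260 and 51850 in naive T cells and 25840 and 34700 in TFH cells, with no overlap but with a log2 difference of -0.64 (95% interval -1.47 to 0.18) and an adjusted p of 0.294. Rassf5, or RAPL, which joins GTP-bound Rap1 to LFA-1, read 51020 and 43430 against 42970 and 37200 (log2 difference -0.24, 95% interval -0.58 to 0.11). The groups differed by less than the interval could resolve.

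Rasa2, the other GAP1 family member here, read 1087 and 1710 in naive T cells and 1420 and 1807 in TFH cells, which overlapped, and over all groups it lay between 3251 and 3518 on slide 5 and between 870.6 and 1835 on the other slides. Rap1a, one of the Rap1 GTPases themselves, is read by a probe whose values followed the slide: over all groups they lay between 106.9 and 184 on slide 4 and between 701.8 and 1201 on slide 5. Its log2 difference between TFH and naive T cells was 1.03 with a 95% interval of -2.09 to 4.15, so this fit could not resolve a change of several fold. With the slide as a block, which compares arrays hybridised together, the same difference was called higher (adjusted p = 0.0133), and it was -0.01 without TFH replicate 2. Rap1a, Rap1b, Rasa2, Rassf5 and Sipa1 were called in 0 of the 15 comparisons.

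Treg cells of pLN did not differ from naive T cells by the call in any member, 0 of 9 against 3.76% of all tested probes, and 0 members had an unadjusted p under 0.05, against 2501 probes. Rasgrp2 stood at 16010 and 12680 in Treg cells, under both naive T arrays. Its log2 difference was -0.74 (95% interval -1.83 to 0.35, adjusted p = 0.83), and the other probe gave -0.88 (95% interval -1.58 to -0.17, adjusted p = 0.247). For Rasgrp1, at 7557 and 9630, it was -0.48 (95% interval -0.99 to 0.03), and for Rasa3, at 38890 and 44270, -0.27 (95% interval -0.57 to 0.03).

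TFR cells of pLN had lower Rasa3 and Rasgrp1 than Treg cells. Here 2 of 9 members were called lower and 0 higher, where 2.56% of all tested probes were called lower and 5.79% higher. Rasa3 read 20330 and 20320 in TFR cells against 38890 and 44270 in Treg cells (log2 change -1.03 ± 0.14, adjusted p = 0.00124). Rasgrp1 read 3405 and 4053 against 7557 and 9630 (log2 change -1.20 ± 0.23, adjusted p = 0.00764). Neither gene's TFR arrays overlapped with the Treg arrays.

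Both calls were close to the size set for a call. Without Treg replicate 2, Rasa3 differed by -0.94 (adjusted p = 0.0194) and Rasgrp1 by -1.02 (adjusted p = 0.0808), and neither was called. Without TFR replicate 1, Rasgrp1 was not called (adjusted p = 0.0701). With the other Rasgrp1 probe the adjusted p was 0.382, and in a fit of the compared groups alone the adjusted p was 0.0606 for Rasa3 and 0.0794 for Rasgrp1.

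Rasgrp2 and Rapgef6 were also lower on every TFR array than on every Treg array of pLN. Rasgrp2 had 7977 and 5060 in TFR cells (log2 difference -1.17 ± 0.49, adjusted p = 0.184), and Rapgef6 had 12600 and 15720 against 29850 and 33620 (log2 difference -1.17 ± 0.34, adjusted p = 0.0536). Neither was called. When the slide was fitted as a block, both were called, Rasgrp2 with an adjusted p of 0.0153 and Rapgef6 with 0.00068, and 4 of 9 members were called in all.

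Against TFH cells of pLN, TFR cells kept more Rasa3 and, by one probe, more Rasgrp2. No leading probe was called, 0 of 9 against 5.01% of all tested probes, although 3 members had an unadjusted p under 0.05, as 3517 probes did. Rasa3 was higher in TFR by 0.67 ± 0.14 on the log2 scale, with an adjusted p of 0.0155 but a size under 1. Rasgrp2 was higher by 1.41 ± 0.49 with an adjusted p of 0.157 on its leading probe. Its other probe, at 6592 and 5527 in TFR cells, was called (log2 change 1.37 ± 0.32, adjusted p = 0.0309). With the slide as a block the leading probe was called as well (adjusted p = 0.012). Rasgrp1 differed by 0.27 (95% interval -0.24 to 0.78).

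**Figure D2:**
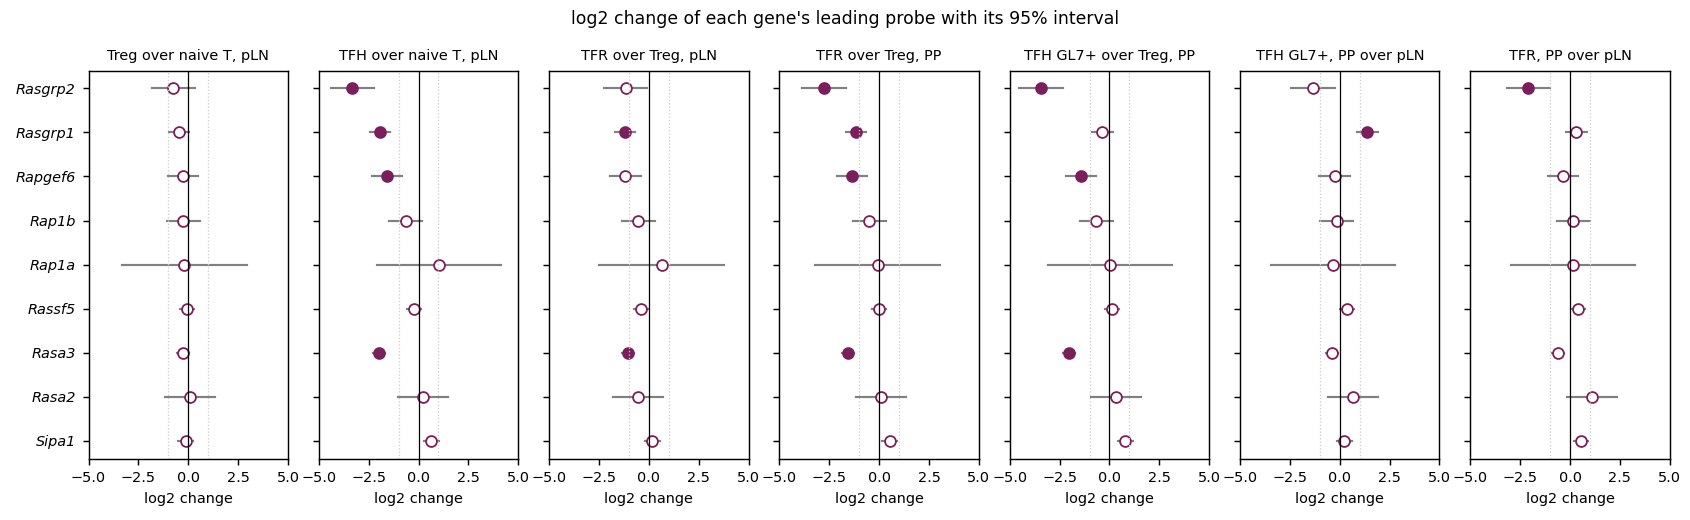
log2 change of each gene's leading probe in 7 comparisons, with 95% intervals; filled points were called and dotted lines mark changes of 1 in size. Rasgrp2 shows the widest falls, down to -3.43 for PP TFH GL7+ over Treg cells, and Rasgrp1 in PP over pLN TFH GL7+ cells, at 1.39, is the one call of a higher level.

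The step from Treg to TFR cells and the step from naive T to TFH cells were set against each other in pLN. No leading probe was called in this difference of differences, 0 of 9 against 2.18% of all tested probes, with 3 members at an unadjusted p under 0.05, as 2037 probes were. The Rasa3 step was smaller in the regulatory cells by 0.94 ± 0.19 on the log2 scale (adjusted p = 0.0337), just under the size for a call. The Rasgrp2 steps differed by 2.15 ± 0.69 on the leading probe (adjusted p = 0.227) and by 2.24 ± 0.45 on the other probe, which was called (adjusted p = 0.0308). With the slide as a block the leading Rasgrp2 probe was called (adjusted p = 0.0175).

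In PP, TFR cells had lower Rasgrp2, Rasa3, Rapgef6 and Rasgrp1 than Treg cells. Here 4 of 9 members were called lower and 0 higher, while 3.02% of all tested probes were called lower and 6.23% higher. The member median was -0.48 and that of all tested probes -0.06.

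Rasgrp2 had 11780 and 8788 in PP Treg cells and 2723 and 825.1 in PP TFR cells. The TFR arrays lay under the Treg arrays but differed from each other, the slide 5 array being the lower (log2 change -2.76 ± 0.49, adjusted p = 0.00469). Taken within slides, the difference was -2.11 on slide 4 and -3.41 on slide 5. The 13 B-cell markers summed to 195900 on the slide 4 TFR array and to 13750 on the slide 5 TFR array, and to 132100 and 16090 on the Treg arrays of these slides. Their part in the difference was not tested.

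Rasa3 had 39270 and 39880 in PP Treg cells and 14100 and 12790 in PP TFR cells, close within groups and far between them (log2 change -1.56 ± 0.14, adjusted p = 8.46e-05). Rapgef6 read 22670 and 35420 in Treg cells and 7964 and 14970 in TFR cells (log2 change -1.38 ± 0.34, adjusted p = 0.0261). Rasgrp1 read 9282 and 11440 in Treg cells and 3859 and 5559 in TFR cells (log2 change -1.15 ± 0.23, adjusted p = 0.00841). None of these pairs of groups overlapped on the leading probes. The other Rasgrp1 probe was not called (log2 difference -1.44 ± 0.60, adjusted p = 0.174). For Rapgef6, the junction probe was called (log2 change -2.08 ± 0.44, adjusted p = 0.0114) and the third probe was not (-2.36 ± 1.06, adjusted p = 0.215).

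Without slide 4, which leaves 1 PP array a group and borrows the spread of the other groups, Rasgrp2 and Rasa3 were still called, while Rapgef6 (-1.24, adjusted p = 0.108) and Rasgrp1 (-1.04, adjusted p = 0.094) were not. Rapgef6 and Rasgrp1 also lost their calls without PP TFR replicate 1 (adjusted p = 0.188 and 0.0692) and without PP Treg replicate 2 (adjusted p = 0.196 and 0.0752). In a fit of the compared groups alone 0 of the 4 were called, with adjusted p between 0.0848 for Rasa3 and 0.295 for Rapgef6.

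Sipa1 had 18830 and 20770 in PP TFR cells and 14540 and 12980 in PP Treg cells. Both TFR arrays were higher, by 0.53 ± 0.17 on the log2 scale, with an adjusted p of 0.0715.

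TFH GL7+ cells of PP had lower Rasgrp2, Rasa3 and Rapgef6 than PP Treg cells, and Rasgrp1 was not among the calls. Of 9 members 3 were called lower, against 4.62% of all tested probes. Rasgrp2 had 1140 and 779.3 in TFH GL7+ cells (log2 change -3.43 ± 0.49, adjusted p = 0.00109) and Rasa3 had 10070 and 9505 (log2 change -2.02 ± 0.14, adjusted p = 1.02e-05). Rapgef6 had 9683 and 11640 (log2 change -1.42 ± 0.34, adjusted p = 0.0209), and it lost this call without slide 4 (adjusted p = 0.0516), without TFH GL7+ replicate 1 (adjusted p = 0.134) or 2 (adjusted p = 0.0675), without Treg replicate 2 (adjusted p = 0.165) and in a fit of the compared groups alone (adjusted p = 0.125). All 3 genes lay under the Treg arrays without overlap.

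Rasgrp1 in the same PP TFH GL7+ cells had 7105 and 9114, both just under the Treg values. On this leading probe the log2 difference was -0.36 with a 95% interval of -0.87 to 0.15 (adjusted p = 0.421) and so did not reach -1. The other Rasgrp1 probe gave -0.93 (adjusted p = 0.423), and its 95% interval of -2.26 to 0.40 does include -1. Naive T cells of PP are not among the groups, so the reference differs from that used in pLN. Sipa1, at 24320 and 23580, was higher than in Treg cells by 0.80 ± 0.17 (adjusted p = 0.00968), under the size for a call.

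PP TFR and PP TFH GL7+ cells were not told apart by any member, 0 of 9 against 3.44% of all tested probes, with 2 members (Rasa3 and Rasgrp1) at an unadjusted p under 0.05, as 2548 probes were. Rasgrp1 was lower on both TFR arrays, by 0.80 ± 0.23 on the log2 scale, with an adjusted p of 0.11. The 2 TFH gates of PP were not told apart either. GL7+ and GL7− cells differed in 0 of 9 members, against 0.00898% of all tested probes, and 0 members had an unadjusted p under 0.05, against 254 probes. Rasgrp2 was 1140 and 779.3 in GL7+ and 1309 and 930.8 in GL7− cells, and Rasa3 was 10070 and 9505 against 9769 and 10370. Without slide 4, 0 of 9 members were called in either of these comparisons. The 95% intervals of the difference were -1.32 to 0.87 for Rasgrp2 and -0.34 to 0.26 for Rasa3.

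Taken within slides, where both arrays were hybridised together, the log2 difference of TFH minus naive T cells on slides 1, 2 and 3 was -3.58, -3.05 and -3.59 for Rasgrp2. It lay between -1.95 and -2.25 for Rasa3, and was -2.04, -1.85 and -1.61 for Rasgrp1. For TFR minus Treg cells on slides 1 to 5, Rasgrp2 gave -1.01, -1.33, -2.10, -2.11 and -3.41, Rasa3 gave -0.94, -1.12, -1.20, -1.48 and -1.64, and Rasgrp1 gave -1.15, -1.25, -1.32, -1.27 and -1.04. Every slide gave a lower value in the follicular cells for these 3 genes, on slide 3 with the d25 arrays as well. The 3 genes were chosen by the F test on these same arrays, so the differences describe the slides and are not a further test.

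**Figure D3:**
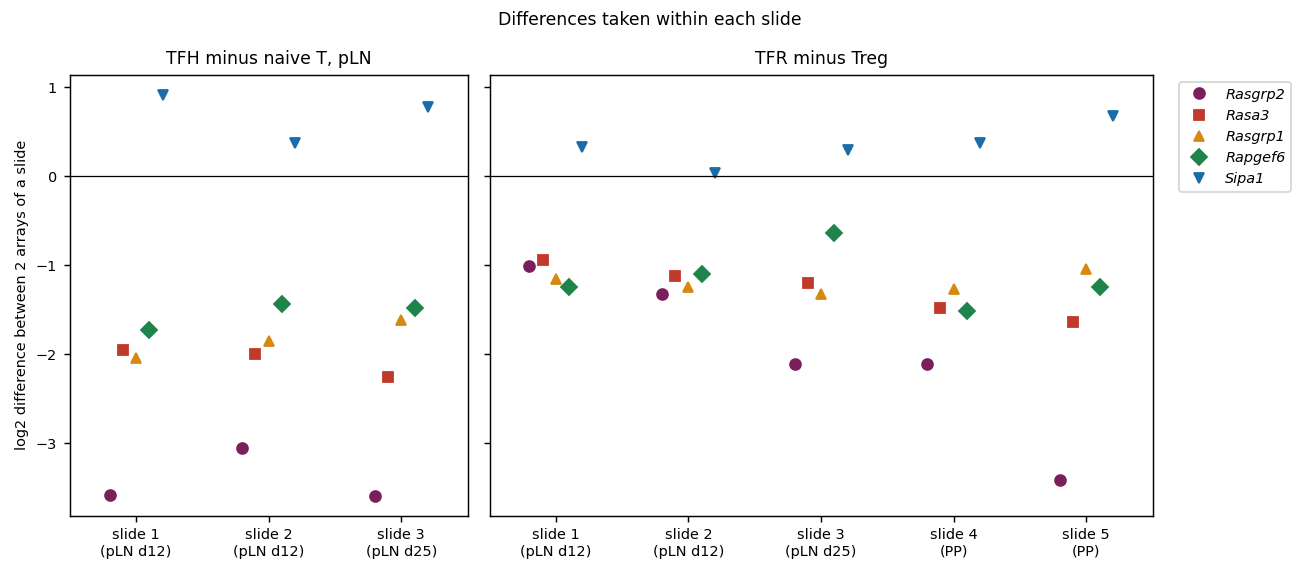
log2 difference between 2 arrays of the same slide, TFH minus naive T on the 3 pLN slides and TFR minus Treg on all 5 slides, for 5 genes. Rasgrp2, Rasa3, Rasgrp1 and Rapgef6 lie below 0 on every slide, Sipa1 lies above 0 on every slide, and Rasgrp2 ranges from -1.01 on slide 1 to -3.41 on slide 5 for TFR minus Treg.

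The tissues were then compared for each cell type. All PP arrays lay on slides 4 and 5 and all pLN arrays on slides 1 to 3, scanned on other days, so that tissue and slide cannot be told apart in these values. Treg cells of PP and pLN differed in 0 of 9 members, against 2.24% of all tested probes, and 0 members had an unadjusted p under 0.05, against 3248 probes. TFH GL7+ cells of PP had more Rasgrp1 than those of pLN, the only member called, 1 of 9 higher against 2.36% of all tested probes. Rasgrp1 was 7105 and 9114 in PP and 2884 and 3280 in pLN. The arrays did not overlap and the difference was 2.62-fold (log2 change 1.39 ± 0.23, adjusted p = 0.00889).

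This call rested on one probe. The other Rasgrp1 probe read 3966 and 5573 in PP and 1915 and 5241 in pLN, which overlapped (log2 difference 0.57 ± 0.60, adjusted p = 0.693). On the leading probe the call was lost without slide 4 (1.57, adjusted p = 0.051), without pLN TFH replicate 1 (1.30, adjusted p = 0.0551), without PP TFH GL7+ replicate 2 (1.21, adjusted p = 0.0696) and in a fit of the compared groups alone (adjusted p = 0.176). The probes are annotated to different transcripts, and whether they read the same RNA was not tested.

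Rasgrp2 in TFH cells was lower in PP than in pLN on both probes, without overlap. The leading probe differed by -1.34 ± 0.49 (adjusted p = 0.154) and the other probe, at 766.2 and 697.7 in PP against 1994 and 2749 in pLN, by -1.68 ± 0.32 (adjusted p = 0.0153), which was called.

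TFR cells differed most between the tissues in Rasgrp2. It was called lower in PP, 1 of 9 members against 5.39% of all tested probes called lower and 5.74% called higher. The values were 2723 and 825.1 in PP and 7977 and 5060 in pLN, without overlap (log2 change -2.08 ± 0.49, adjusted p = 0.0174). The other probe gave 1794 and 800.1 against 6592 and 5527 (log2 change -2.33 ± 0.32, adjusted p = 0.00138). On the leading probe the log2 change was -1.22 without PP TFR replicate 2 (adjusted p = 0.0862) and -1.76 without pLN TFR replicate 1 (adjusted p = 0.127), so that it was not called in either case, and it was -2.95 without slide 4, where it was called. In a fit of the compared groups alone its adjusted p was 0.195.

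Rasa3 in TFR cells was also lower in PP, by 0.60 on the log2 scale (-0.60 ± 0.14, adjusted p = 0.0149), with a size under 1, and without slide 4 its adjusted p was 0.054. Sipa1 was higher in PP TFR cells by 0.55 ± 0.17 (adjusted p = 0.0506). Rassf5 was higher in PP TFR cells by 0.42 (95% interval 0.07 to 0.77, adjusted p = 0.0993). Rapgef6 differed by -0.37 (95% interval -1.13 to 0.40) on its leading probe and by -1.33 (95% interval -2.31 to -0.36, adjusted p = 0.0645) on its junction probe, and neither was called.

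No member was shown to take a different step between Treg and TFR cells in the 2 tissues. In the test of the difference 0 of 9 members were called, against 0.548% of all tested probes, and 2 members (Rasa3 and Rasgrp2) had an unadjusted p under 0.05, as 1818 probes did. The Rasgrp2 step was larger in PP by 1.60 on the log2 scale (-1.60, 95% interval -3.14 to -0.05, adjusted p = 0.578), and its other probe gave -1.74 ± 0.45 (adjusted p = 0.168).

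**Figure D4:**
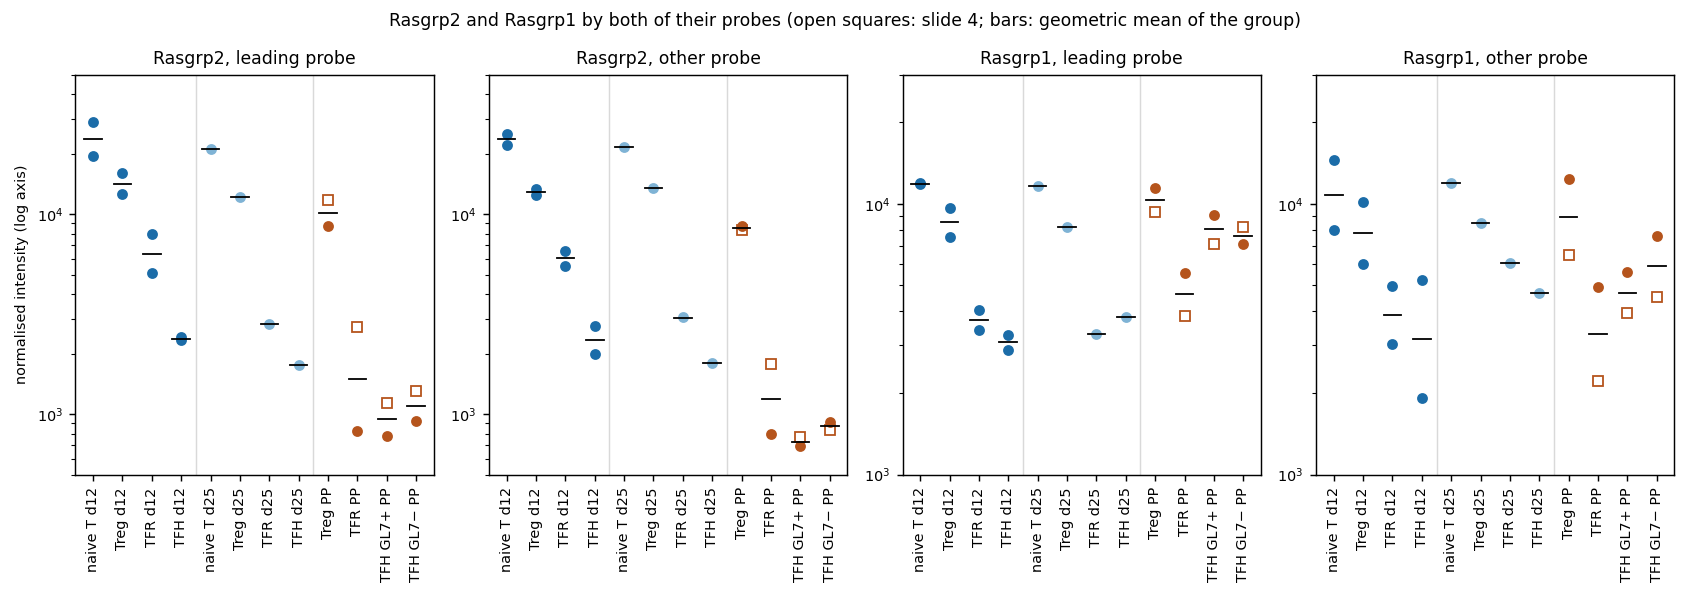
Normalised intensity (log axis) of both Rasgrp2 probes and both Rasgrp1 probes on each array, with bars at the geometric mean of a group. Both Rasgrp2 probes run from high naive T to low TFH cells in pLN, with Treg and TFR cells between, while the Rasgrp1 probes part in TFH cells, where PP lies above pLN on the leading probe and overlaps with it on the other.

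At d25 each pLN group had 1 array, so the spread came from the other groups. TFH cells at d25 and d12 differed in 0 of 9 members, against 0.0314% of all tested probes, and TFR cells in 0 of 9, against 0.00898%, and no leading probe of a member had an unadjusted p under 0.05 in either, where 635 and 812 probes did. Rasgrp2 was 21190 in naive T, 12190 in Treg, 2837 in TFR and 1765 in TFH cells at d25, the same order as at d12. Rasa3 was 48570, 41450, 18090 and 10180 in these groups. Rasgrp1 was 11640, 8230, 3301 and 3804, and Sipa1 was 12810, 12120, 14870 and 21890. The d25 TFR value of Rasgrp2 lay under both d12 TFR arrays (log2 difference -1.16, 95% interval -2.50 to 0.18), and the other probe gave -0.98 (95% interval -1.85 to -0.12, adjusted p of 1).

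Over all groups the order of Rasa3 was naive T, Treg, TFR and TFH. PP TFR and d12 pLN TFH cells lay next to each other and overlapped (12790 to 14100 and 12700 to 12810), and the d25 pLN TFH array lay lower, at 10180. For Rasgrp2 the order in pLN was the same, and the lowest groups were the TFH GL7+, TFH GL7− and TFR cells of PP, which overlapped with each other, and all 3 pLN TFH arrays, at 2431, 2350 and 1765, lay within the range of the PP TFR arrays, 825.1 to 2723. For Sipa1 the highest groups were both PP TFH gates, pLN TFH and PP TFR cells, which lay between 18800 and 24320, and the pLN Treg, naive T and TFR and the PP Treg cells lay between 11010 and 14870.

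The genes whose group means followed each member most closely were sought among 3001 genes that passed the same F test, as a description over 12 groups that share slides. Rasa3 ran most closely with S1pr1, the sphingosine-1-phosphate receptor that lets T cells leave lymphoid organs (r = 0.994), Tsc22d3, or GILZ (r = 0.989), and Gpr18 (r = 0.988). Rasgrp2 ran with Ncbp3 (r = 0.986), Nob1 (r = 0.984) and Sidt1 (r = 0.983). Rasgrp1 ran with Rtn4rl1 (r = 0.966), Vps37b (r = 0.956) and Actn1 (r = 0.948).

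Other genes of the pathway, 58 in a list of Rap and Ras GTPases, their exchange factors, GTPase-activating proteins and inhibitors, and effectors, were looked at beside the members, and 48 had a tested probe. In pLN TFH against naive T cells 7 of 48 were called higher and 5 lower, against 9.27% and 5.48% of all tested probes, with a median log2 change of -0.12. Among GTPase-activating proteins and inhibitors of Ras, Dab2ip and the Sprouty protein Spry1 were higher. Dab2ip was not well above background on either naive T array and read 4376 and 2111 in TFH cells, at least 49.4-fold higher (adjusted p = 1.94e-05). Such bounds set the brighter group against the lowest signal that still counted as detected on each array of the dimmer one. Where the probe's own value there was higher, that value was used. An undetected probe can read above this lowest signal, so the bounds are approximate.

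Spry1 read 150.1 and 236.3 in naive T cells and 1846 and 3390 in TFH cells (log2 change 3.73 ± 0.51, adjusted p = 0.000551). The Rap exchange factors split: Rapgef5 was at least 11.7-fold (adjusted p = 0.000459) and Dock4 at least 8.75-fold (adjusted p = 0.000234) higher in TFH cells, and Rapgef4, or EPAC2, at least 3.38-fold lower (adjusted p = 0.0018). Lower too were Rras2, a Ras-related GTPase, at 252.7 and 261.9 against 2646 and 2114 (log2 change -3.20 ± 0.27, adjusted p = 2.42e-05), Arap3, at least 3.26-fold (adjusted p = 0.00224), and Rasal1 (log2 change -1.30 ± 0.36, adjusted p = 0.0294).

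The counts for TFR against Treg cells were few, 2 of 48 higher and 1 lower in pLN, where 5.79% and 2.56% of all tested probes were called, and 4 higher and 1 lower in PP, where 6.23% and 3.02% were. Without slide 4, 5 genes were called in PP. Higher in pLN were Dab2ip (log2 change 2.81 ± 0.55, adjusted p = 0.00844) and the Rap GTPase-activating protein Rap1gap (adjusted p = 0.0238), for which no fold is given, since it was detected on 1 of 2 TFR arrays and on neither Treg array. One was lower, the SPA-1 relative Sipa1l2 (log2 change -1.21 ± 0.19, adjusted p = 0.00283). Higher in PP were Dab2ip (log2 change 4.49 ± 0.55, adjusted p = 0.000524), Rap1gap (at least 9.7-fold, adjusted p = 0.000248), Rapgef5 (log2 change 3.59 ± 0.67, adjusted p = 0.00595) and Rasgrf1 (at least 2.98-fold, adjusted p = 0.00185). Rras2 was the one gene called lower, at 600.3 and 490.6 against 1935 and 3054 (log2 change -2.16 ± 0.27, adjusted p = 0.000533).

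Between TFR cells of PP and pLN, 3 of the 48 were called higher in PP and 2 lower, against 5.74% and 5.39% of all tested probes. The Ras exchange factor Rasgrp4 read 1188 and 1946 in PP and 221.5 and 177 in pLN (log2 change 2.94 ± 0.35, adjusted p = 0.000803). Rasgrf1 was higher as well (at least 1.84-fold, adjusted p = 0.00232), but its replicate 2 value in PP, 75.47, lay under the lowest detected signal of pLN TFR replicate 2, 87.53. Rap1gap was higher too (adjusted p = 0.00667), at 256.9 and 419.9 in PP and at 68.56 and 68.93 in pLN, where the second value was not well above background. Rasa4 (log2 change -1.72 ± 0.43, adjusted p = 0.0214) and Rras2 (log2 change -1.59 ± 0.27, adjusted p = 0.00374) were lower. In both directions together 5 genes were called, as were 5 genes without slide 4. Slide 4 carried B-cell transcripts in both PP Treg and PP TFR cells, with sums of 132100 and 195900, and their part in these values was not tested.

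The promoters of the members were read from RefSeq (GRCm38.p6), where 8 of 9 members matched with 9 windows. The 250 bases before each start are shown for Rasgrp2, Rasa3 and Rasgrp1, the 3 members that varied over the 12 groups in the F test. Capitals mark CACCC on either strand, the core of sites bound by KLF factors such as KLF2, which drives genes of T cell traffic. The windows are chr19:6399625-6399874 and chr19:6401455-6401704 (plus strand) for Rasgrp2, chr8:13677588-13677837 (minus strand) for Rasa3 and chr2:117342878-117343127 (minus strand) for Rasgrp1.
Rasgrp2, first start: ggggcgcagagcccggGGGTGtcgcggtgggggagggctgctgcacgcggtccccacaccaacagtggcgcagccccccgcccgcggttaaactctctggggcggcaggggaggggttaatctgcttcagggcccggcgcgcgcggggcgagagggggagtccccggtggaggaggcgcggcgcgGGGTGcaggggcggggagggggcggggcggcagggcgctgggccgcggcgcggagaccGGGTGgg
Rasgrp2, second start: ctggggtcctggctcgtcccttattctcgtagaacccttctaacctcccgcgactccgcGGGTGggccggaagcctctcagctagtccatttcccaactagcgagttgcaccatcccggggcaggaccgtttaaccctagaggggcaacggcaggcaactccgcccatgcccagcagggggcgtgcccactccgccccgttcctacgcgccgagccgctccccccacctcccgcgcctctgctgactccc
Rasa3: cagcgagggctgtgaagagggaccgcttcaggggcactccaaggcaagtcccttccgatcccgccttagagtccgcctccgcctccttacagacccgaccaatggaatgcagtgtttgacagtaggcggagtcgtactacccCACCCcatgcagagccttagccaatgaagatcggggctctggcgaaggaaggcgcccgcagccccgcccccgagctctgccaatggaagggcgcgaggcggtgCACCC
Rasgrp1: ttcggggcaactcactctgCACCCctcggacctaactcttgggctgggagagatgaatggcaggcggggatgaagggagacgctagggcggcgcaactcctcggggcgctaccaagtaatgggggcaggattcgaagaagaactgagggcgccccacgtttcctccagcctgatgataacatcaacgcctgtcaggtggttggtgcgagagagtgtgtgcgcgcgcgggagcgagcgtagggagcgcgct
CACCC was in 6 of the 9 member windows and in 52% of 32851 such windows in all. The windows shown hold 3, 1, 2 and 1 matches in the order printed. The forkhead motif TGTTTAC, looked for on both strands, was in 0 of 9 member windows and 3.17% of all, and the BCL6 motif TTCCTNGAA was in 0 of 9 and 1.31% of all. Rassf5 and Sipa1, which were not among the genes that fell, held CACCC too, with 3 and 1 matches. Rapgef6, which was among the genes that fell, held 0 matches.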

How the data were processed

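Sorted CD4 T cells of 12 groups (20 arrays) were hybridised to 1-colour Agilent arrays with 4 printed features per probe. The deposited scanner files hold spot intensities, background-corrected by Agilent Feature Extraction 10.7.3.1 per the file headers. The authors' own series values, normalised intensities with a 75th percentile of 1500 and a floor of 20, were used as an alternative. Per the authors' methods, features with a pixel CV above 0.5 or beyond 1.42 interquartile ranges were left out here, the rest averaged geometrically, quantile normalised, scaled to 1500, floored at 20 and taken to log2. Between 42.97% and 58% of probes were detected per array, which limits the precision for dim probes, as does the number of arrays.

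Probes detected (3 of 4 features well above background) on both arrays of a group of 2 were tested, 22264 of 39429. One linear model over the 12 groups was fitted with limma 3.58.1 in R 4.3.3, leaving 8 residual degrees of freedom, with Benjamini-Hochberg adjustment over all tested probes. The fit was tested on simulated data with independent arrays and no slide effects, so that test does not cover differences between slides.

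Members and lists were chosen with earlier results of these data known. All 9 members were named. Of the 58 pathway genes (2 further genes are not reported here), up to 4 called genes with the largest change in each direction were named in 4 comparisons, and for each member passing the F test the 3 genes with the highest r over the group means. Alternatives were the authors' values, normexp background, percentile scaling alone, no or a stricter detection filter, no moderation, the compared groups alone, the slide as a block, each array and slide 4 left out, other probes, and the methods' t-test for the TFH gates. For the TFH GL7+ and GL7− gates that test put 1 member and 526 probes at an unadjusted p under 0.05, and 1 probe after adjustment.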

Additional observations from a re-analysis of the deposited data

Results flagged for a closer look

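In 6 cases a probe reached an adjusted p under 0.05 in a test of the difference itself, with no size required. They were sought among the member probes and the pathway genes named above. In pLN at d12, the log2 change of TFR over Treg cells minus that of TFH over naive T cells was 0.945 for Rasa3 (adjusted p = 0.0337) and 2.243 for the second Rasgrp2 probe (adjusted p = 0.0308), so both fell less in the regulatory cells. The leading Rasgrp2 probe gave 2.15 with an adjusted p of 0.227, and the Rasa3 value was under the size for a call. In this comparison 0 of 9 leading member probes were called, against 2.18% of all tested probes. Of the 48 pathway genes, 1 was called higher and 3 lower.

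Among other genes of the pathway, the same difference was 2.28 for Rras2 (adjusted p = 0.0117), -4.014 for Dock4 (adjusted p = 0.00613), -2.708 for Rasgrp4 (adjusted p = 0.0212) and -4.035 for Dab2ip (adjusted p = 0.0253). Dock4 and Dab2ip were not well above background on the naive T arrays, so their values are not measured on both sides. For Dock4, replicate 2 of the Treg and TFR cells, at 75.05 and 41.8, was not well above background either.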

How the results depend on the processing

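The calls of Rasgrp2 and Rasa3 in pLN TFH over naive T cells held in 13 of 13 alternatives, and those in PP TFH GL7+ over Treg cells in 14 of 14. The count of members differing among the 12 groups (3) was 5 with normexp background and 6 with the slide as a random block. Leaving out single arrays gave 3 to 5, or 2 to 6 over all alternatives. With the slide as a fixed block the counts were 4 for pLN TFR over Treg cells (2 otherwise), 1 for pLN TFR over TFH cells (0 otherwise) and 1 for the difference of follicular changes in pLN (0 otherwise), which was also 1 with percentile scaling alone. Without slide 4 the counts were 2 for PP TFR over Treg cells (4 otherwise) and 0 for TFH GL7+ cells of PP over pLN (1 otherwise). With the compared groups alone they were 0 for pLN TFR over Treg, PP TFR over Treg, and TFH GL7+ and TFR cells of PP over pLN. Leaving out single arrays gave 0 to 2, 2 to 4, 0 to 1 and 0 to 1 in these 4 comparisons. In pLN TFH over naive T cells Rap1a ran from -0.01 to 2.07 and Rasa2 from -0.094 to 0.56 when single arrays were left out, so their direction was not settled. Of the pathway list, 12 genes were called in pLN TFH over naive T cells, 5 among probes detected on all 20 arrays and 6 with the compared groups alone. Over all alternatives its counts ran from 1 to 5 for pLN TFR over Treg (3 otherwise), 0 to 8 for PP TFR over Treg (5 otherwise) and 1 to 6 for TFR cells of PP over pLN (5 otherwise). The cause of these shifts was not tested. The labels give no replicate numbers that groups share, so arrays were paired by slide, through the slide as a fixed block within a tissue and through the differences within slides. Signal over background limits Rap1a and the dim pathway genes, and 2 arrays a group limit every interval.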
